A study of Mus musculus with 2 samples.

Results

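The 9 genes described here make up the epithelial sodium channel and the steroid pathway that controls it: Scnn1a, Scnn1b, Scnn1g, Nr3c2, Nr3c1, Hsd11b2, Sgk1, Nedd4l and Tsc22d3. They were chosen by symbol, with no measured value in the rule, and all 9 were found among the 32285 genes listed. The study measured single-cell RNA in 2 libraries of newborn mouse kidney (age P0). The genotype of both is given as Rbpj c/+ ; Foxd1cre/+, that is, 1 conditional allele of the Notch effector Rbpj beside a normal copy, in mice carrying a Cre recombinase at Foxd1, a gene of the kidney stroma. Every comparison below is therefore between cell classes within the same 2 libraries, and no effect of the genotype could be measured. The labels do not say whether the libraries came from separate animals or from pooled kidneys. The p-values measure only how far class differences vary between these 2 libraries, pooled over the classes of a fit. That variation may be technical.

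The channel is built from the alpha, beta and gamma subunits (Scnn1a, Scnn1b, Scnn1g) and lets sodium enter the late distal tubule, the connecting tubule and the principal cells of the collecting duct. Aldosterone acts through the mineralocorticoid receptor (Nr3c2). The glucocorticoid receptor (Nr3c1) is its relative, and the enzyme Hsd11b2 inactivates glucocorticoid so that aldosterone can reach Nr3c2. Activated receptors induce the kinase Sgk1, which phosphorylates the ubiquitin ligase Nedd4l and so slows removal of the channel from the membrane. Tsc22d3 is a leucine zipper protein induced by corticosteroids.

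The libraries held 200331687 and 173166168 unique molecular identifiers (UMIs) in replicates 1 and 2, and paired values below keep that order. Barcodes were kept from 3000 UMIs and 500 genes upwards if no more than 20% of their UMIs were mitochondrial; they numbered 5529 and 4206, of which 245 and 142 were removed as doublets. The median depth of barcodes passing the rule was 15016 and 20007.5 UMIs, and 6 barcode sequences occurred in both libraries. The haemoglobin UMIs of cells without erythroid markers gave an estimated share of free RNA of 3.08% to 7.37% per class in replicate 1 and 0.258% to 0.747% in replicate 2. For Sgk1 this estimate was too high in some classes of replicate 1, as given below.

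A cell was assigned to a class when its marker score led that of every other class by at least 0.1. The gate gave 71 and 129 connecting tubule cells (markers Trpv5, S100g, Calb1, Klk1, Slc8a1, Trpv6), 123 and 93 principal cells of the collecting duct (Aqp2, Aqp3, Aqp4, Avpr2, Elf5), 35 and 70 distal convoluted tubule cells (Slc12a3, Trpm6, Pvalb, Sall3) and 276 and 331 loop of Henle cells (Slc12a1, Umod, Cldn16, Cldn19, Ptger3). It also gave 52 and 46 intercalated cells and 70 and 49 cells of the ureteric tip, the growing end of the embryonic duct. Proximal tubule, podocytes, nephron progenitors, early nephron, endothelium, stroma, mural and immune cells, 3512 and 2475 cells, were summed as other kidney cells. No member was used in the gate. Each class is a range of a score and not a type: besides the 200 connecting tubule cells, 50 cells lay just under the lead, and besides the 119 tip cells, 54 did. Genes of neighbouring classes were present inside the connecting tubule gate, where the median cell held 297 S100g UMIs per 10000 beside 0.733 of Aqp2 and 0.951 of Slc12a3. In principal cells the median was 21.8 for Aqp2 and 0 for Slc12a3.

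On GRCm38 (GENCODE M21), Scnn1g (chromosome 7, 121734479 to 121768475) and Scnn1b (chromosome 7, 121865038 to 121918514) lie on the same strand, 96563 bases apart. Scnn1a is on chromosome 6 (125320659 to 125344943), Nr3c2 on chromosome 8 (76899442 to 77245012), Hsd11b2 on chromosome 8 (105518755 to 105523988), Sgk1 on chromosome 10 (21882184 to 21999903) and Tsc22d3 on chromosome X (140539528 to 140600659). Scnn1b overlaps Cog7, Nr3c2 overlaps Gm10649, and Nedd4l overlaps the antisense genes A330084C13Rik and AC102333.1, all on the opposite strand. Whether counting used strand is not given in the sources used here, so reads of these partners may not be told apart.

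RefSeq start-site windows (GRCm38.p6, 250 bases before to 50 after a start) matched 5 of the 9 members: 1 window each for Scnn1b, Scnn1g and Nr3c2, 6 for Sgk1 and 3 for Tsc22d3. The windows of Scnn1b (chr7:121864788-121865087, plus strand) and Scnn1g (chr7:121734229-121734528, plus strand) are shown because these neighbours had the most similar levels across classes of all member pairs. Their letters were 61.7% and 64.7% G or C, with 10 and 18 CG pairs, against a median of 52.7% and 7 over 32817 mouse windows. The windows of 1 chromosome were not used, so Nr3c1 and Nedd4l, which lie on it, could not match.
Scnn1b: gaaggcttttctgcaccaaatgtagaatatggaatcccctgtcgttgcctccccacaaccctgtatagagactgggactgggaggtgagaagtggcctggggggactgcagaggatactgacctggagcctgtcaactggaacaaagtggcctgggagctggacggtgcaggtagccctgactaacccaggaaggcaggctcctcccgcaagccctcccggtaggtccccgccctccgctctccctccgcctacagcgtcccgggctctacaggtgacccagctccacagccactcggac
Scnn1g: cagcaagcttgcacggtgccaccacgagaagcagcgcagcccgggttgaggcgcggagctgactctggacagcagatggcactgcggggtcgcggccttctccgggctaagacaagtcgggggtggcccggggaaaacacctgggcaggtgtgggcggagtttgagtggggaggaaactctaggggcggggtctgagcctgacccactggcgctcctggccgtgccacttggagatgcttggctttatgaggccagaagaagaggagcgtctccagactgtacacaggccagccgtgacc

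The beta and gamma subunits had their highest levels in the connecting tubule, followed by principal cells. Levels are given as CPM, the count scaled to a class total of 1000000 UMIs, with the mean ± SD over n = 2 libraries. Scnn1b was at 530 and 561 CPM in the connecting tubule (545 ± 21.8), 335 and 412 in principal cells (374 ± 54.5), 170 and 135 in intercalated cells, 93.3 and 74.5 in the distal convoluted tubule and 48.5 and 29.9 in the ureteric tip. Scnn1g was at 524 and 403 CPM in the connecting tubule (464 ± 85.3), 219 and 242 in principal cells (230 ± 15.9), 93.0 and 86.9 in intercalated cells, 44.9 and 38.9 in the distal convoluted tubule and 26.1 and 18.8 in the tip. For both genes these 5 classes did not overlap between neighbours in the order. In the loop of Henle, by contrast, Scnn1b was at 1.40 and 3.05 CPM and Scnn1g at 0.611 and 1.20, overlapping other kidney cells (1.15 and 2.28 for Scnn1b, 0.815 and 1.13 for Scnn1g).

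The alpha subunit had a wider range along the nephron. Scnn1a was at 161 and 168 CPM in the connecting tubule (164 ± 5.23), 140 and 141 in the distal convoluted tubule, 107 and 134 in principal cells, 116 and 90.4 in intercalated cells and 71.0 and 97.2 in the loop of Henle. The connecting tubule stood above the distal convoluted tubule and the latter above principal cells without overlap, whereas principal cells, intercalated cells and loop of Henle overlapped each with the next. In other kidney cells it was at 1.73 and 2.65 CPM. In the ureteric tip it was at 1.29 and 2.96 CPM, overlapping that pool, although beta and gamma transcripts were present in the tip.

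**Figure D1:**
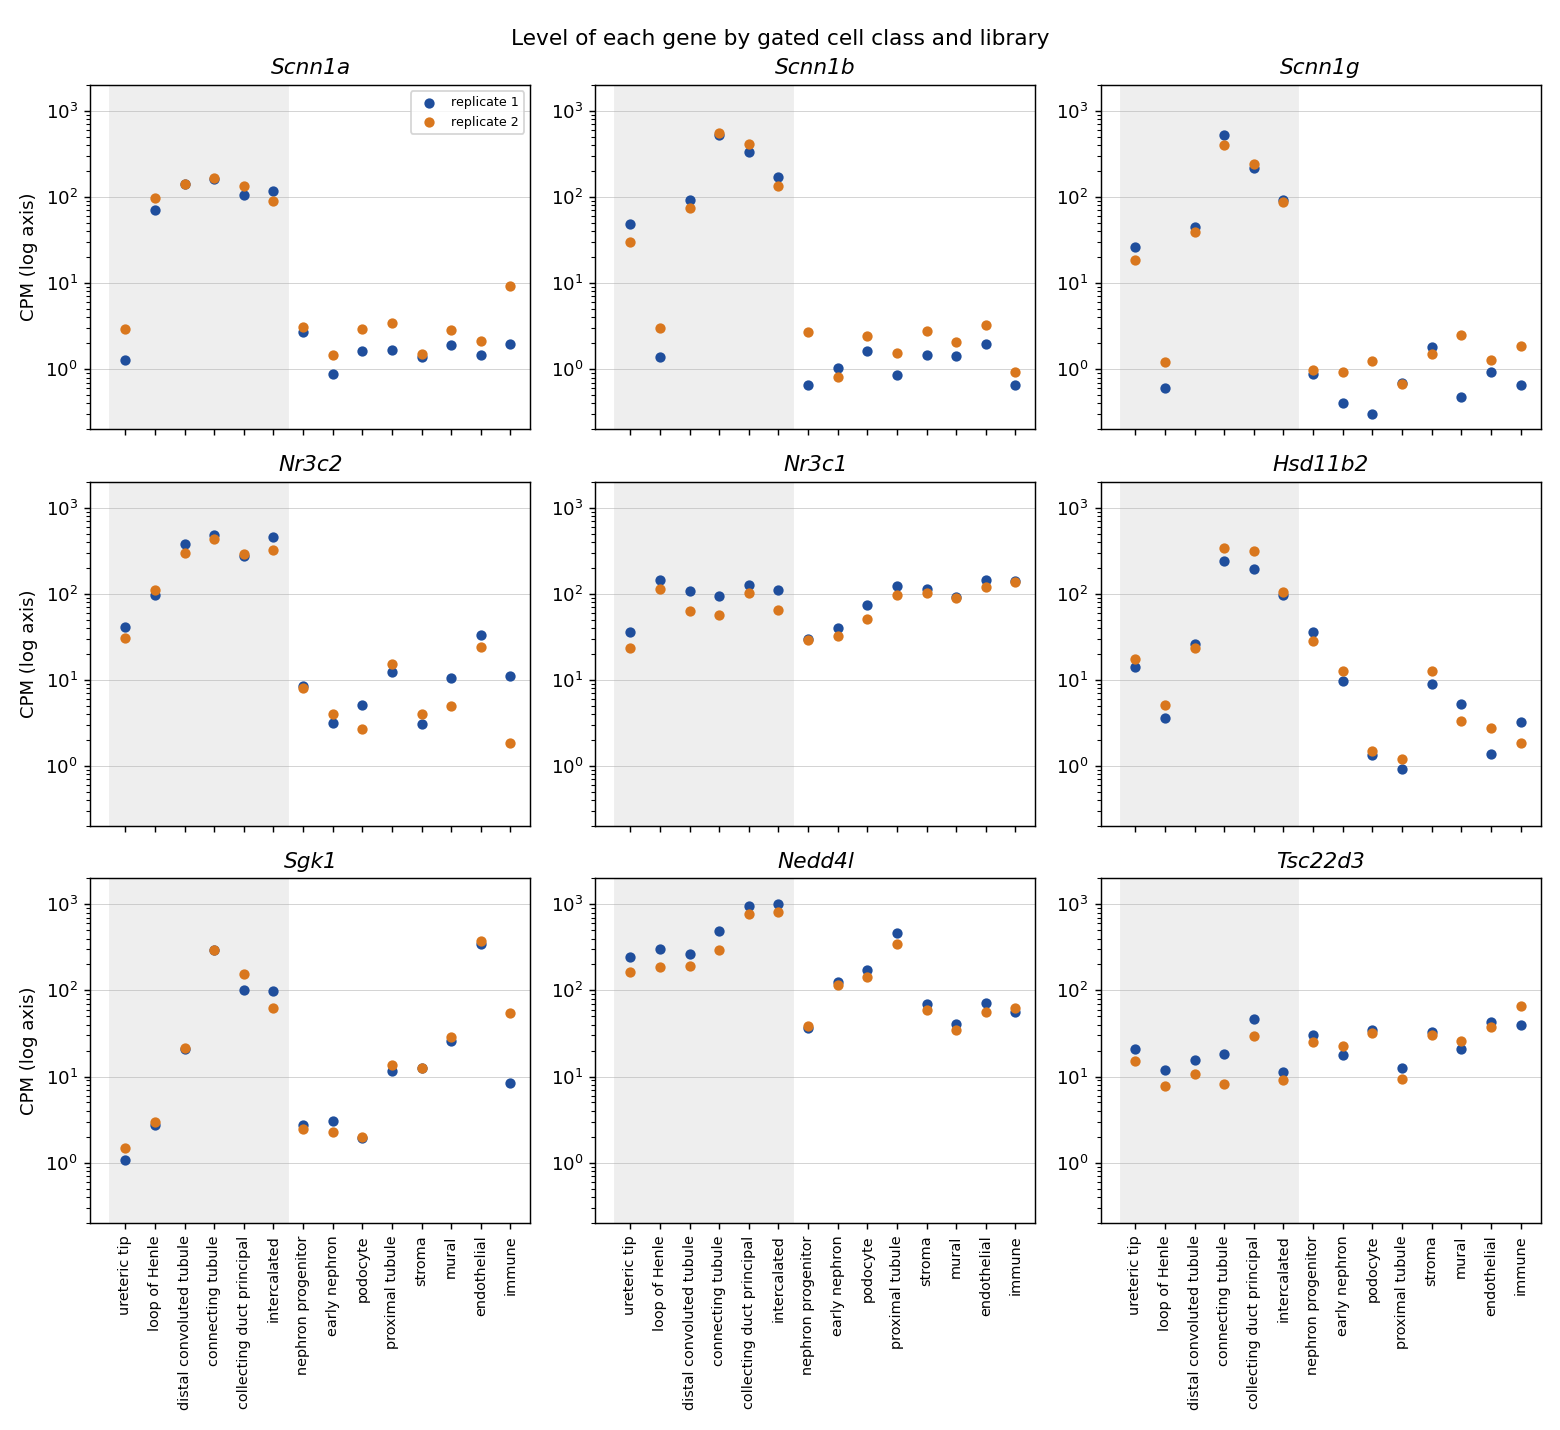
Level of each of the 9 genes in 14 gated classes, in CPM on a log axis; each point is 1 library, and the grey band marks the 6 distal nephron and duct classes. Scnn1b and Scnn1g peak in the connecting tubule (545 and 464 CPM on average), Sgk1 has a second high class in endothelium (359 CPM), and Nr3c1 is present in all classes drawn.

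These differences were tested on class sums of both libraries with edgeR's quasi-likelihood test, with the library as a block and Benjamini-Hochberg adjustment over 15088 genes; a gene is called at an adjusted p under 0.05. The comparisons with other kidney cells share that pool. Distinct cell classes differ in many genes: against other kidney cells, 57.2% of all genes were called in the connecting tubule, 53.3% in principal cells, 56.0% in the distal convoluted tubule and 58.6% in the loop of Henle. Of the 9 members, 8, 9, 8 and 7 were called there. Higher were 7, 9, 6 and 4 of them, where 24.6%, 23.8%, 23.9% and 26.1% of all genes were. The sizes separate the members more than the calls do. In the connecting tubule the log2 fold changes were 6.39 for Scnn1a (SE 0.19, edgeR adjusted p = 6.51e-12), 8.48 for Scnn1b (SE 0.32, edgeR adjusted p = 3.39e-11) and 9.03 for Scnn1g (SE 0.21, edgeR adjusted p = 6.43e-13). In the loop of Henle the value was 5.41 for Scnn1a (SE 0.18, edgeR adjusted p = 1.75e-11), while Scnn1b (0.55, SE 0.41, edgeR adjusted p = 0.263) and Scnn1g (0.07, SE 0.36, edgeR adjusted p = 0.88) were not called. The median gene lay at -0.12, -0.15 and -0.13 in the connecting tubule, distal convoluted tubule and intercalated comparisons and within 0.1 of 0 in the others.

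**Figure D2:**
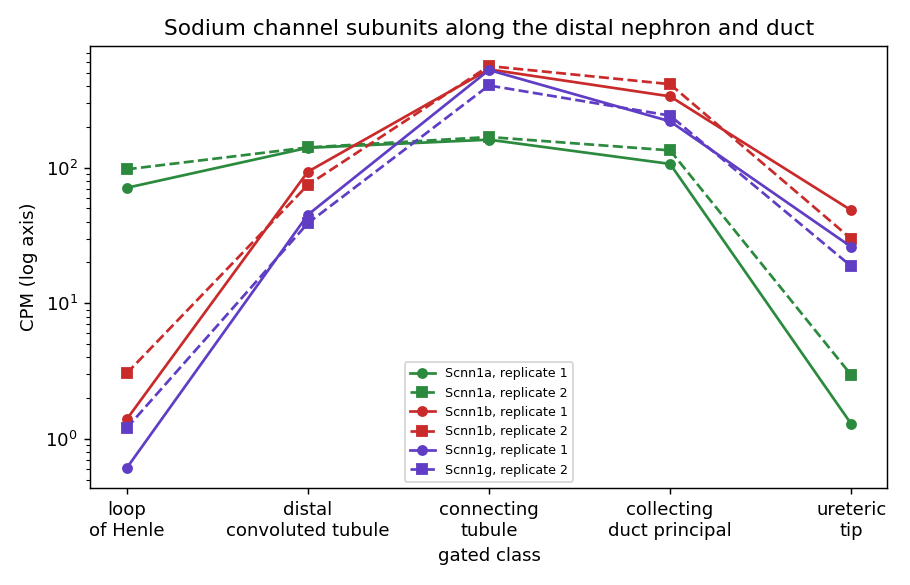
Levels of the channel subunits in 5 classes, in CPM on a log axis; each line joins the classes of 1 library to guide the eye. Scnn1a is already at 71.0 and 97.2 CPM in the loop of Henle, where Scnn1b and Scnn1g stay under 4 CPM, and the order is turned in the ureteric tip.

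Neighbouring gated classes were compared in their order along the nephron. The distal convoluted tubule gate was uneven in S100g, a connecting tubule marker. Its sum was at 2387 and 2918 CPM, while the median cell held 3.88 S100g UMIs per 10000. The part of S100g-rich cells of this gate in the steps below was not tested. From loop of Henle to distal convoluted tubule, where 17.8% of all genes were called, 7 of 9 members were, 6 of them higher in the distal convoluted tubule (8.11% of all genes): Scnn1b by 5.21 (SE 0.36, edgeR adjusted p = 2.07e-07) and Scnn1g by 5.5 on the log2 scale (SE 0.29, edgeR adjusted p = 1.59e-08), but Scnn1a by only 0.76 (SE 0.16, edgeR adjusted p = 0.00457). Nr3c2, Hsd11b2 and Sgk1 were higher as well, by 1.70, 2.49 and 2.90, and Nr3c1 was lower (-0.64). From distal convoluted to connecting tubule 9.21% of all genes were called and 5 of 9 members, all 5 higher in the connecting tubule (5.22% of all genes). They were Sgk1 (3.80, SE 0.23), Hsd11b2 (3.59, SE 0.21), Scnn1g (3.46, SE 0.18), Scnn1b (2.72, SE 0.26) and Nedd4l (0.74, SE 0.12). Scnn1a differed by 0.22 (SE 0.16, edgeR adjusted p = 0.477) and Nr3c2 by 0.43 (SE 0.14, edgeR adjusted p = 0.083), neither of them called.

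From connecting tubule to principal cells the pattern split. Of all genes 31.2% were called (15.7% lower and 15.6% higher in principal cells), and of the members 8 of 9 (5 lower and 3 higher). Lower in principal cells were Sgk1 (-1.30), Scnn1g (-1.08), Nr3c2 (-0.76), Scnn1b (-0.63, SE 0.23, edgeR adjusted p = 0.0477) and Scnn1a (-0.54, SE 0.16, edgeR adjusted p = 0.0161). Higher were Tsc22d3 (1.53), Nedd4l (1.10) and Nr3c1 (0.56). Hsd11b2 was at -0.30 (SE 0.16, edgeR adjusted p = 0.169). The calls of Scnn1a and Scnn1b were lost with free RNA subtracted (edgeR adjusted p = 0.0809 and 0.166) at nearly the same fold change. The Scnn1a call was also lost under a looser gate (-0.44, edgeR adjusted p = 0.0583). That of Scnn1b was lost without doublet removal (-0.67, edgeR adjusted p = 0.116) and with DESeq2 (-0.64, adjusted p = 0.135).

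**Figure D3:**
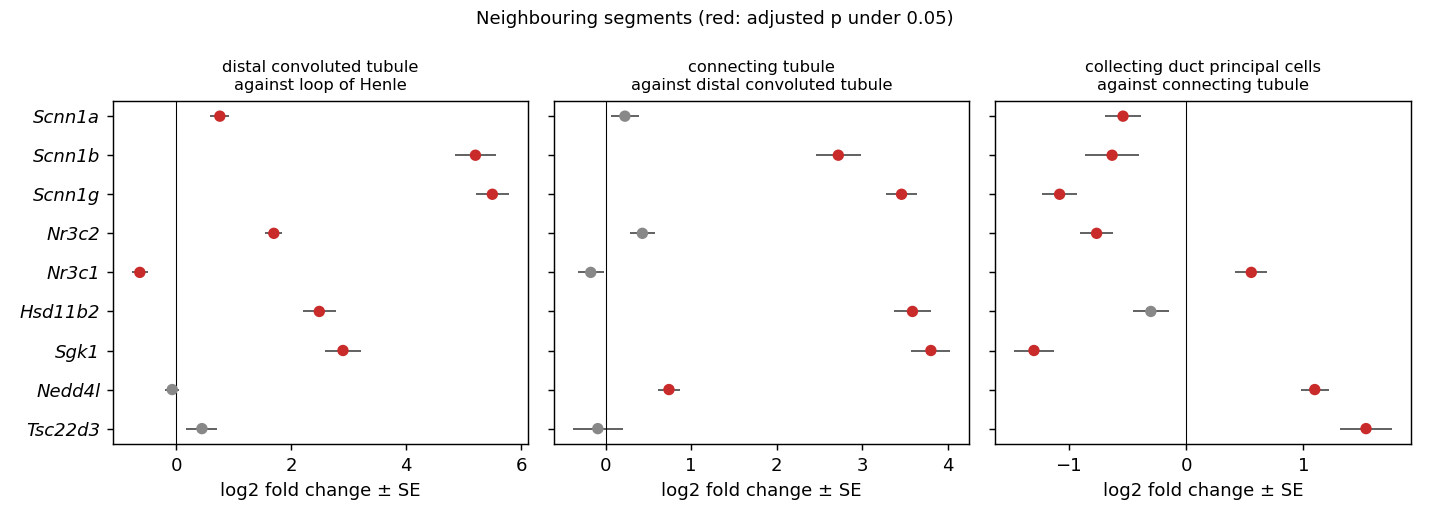
Log2 fold change ± SE of each member between neighbouring classes, from the fit over both libraries; red points have an edgeR adjusted p under 0.05 and the scales differ between panels. Scnn1b, Scnn1g, Hsd11b2 and Sgk1 are higher at each of the first steps, and the last step has members on both sides of 0.

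The balance of subunits can be given as a ratio of counts, which is compared here between classes and not read as a ratio of proteins. Scnn1a over Scnn1b was 0.303 and 0.2999 in the connecting tubule and 0.318 and 0.325 in principal cells, nearly the same in all 4 sums. It was 0.682 and 0.670 in intercalated cells, 1.5 and 1.89 in the distal convoluted tubule and 50.8 and 31.9 in the loop of Henle. In the tip it fell below all of these, at 0.0267 and 0.0992. Scnn1g over Scnn1b varied less, from 0.395 to 0.989 over the same 6 classes and both libraries. The loop of Henle ratios rest on 16 and 38 counts of Scnn1b and 7 and 15 of Scnn1g, levels that overlapped other kidney cells. Those of Scnn1a in the tip rest on 6 and 12 counts with the same limit.

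Presence of all 3 subunits in the same cell was followed after thinning each cell to 3000 UMIs. It was seen in 23 of 71 connecting tubule cells of replicate 1 (32.4%, exact 95% interval 21.8% to 44.5%) and 22 of 129 of replicate 2 (17.1%, 11% to 24.7%). Among principal cells it was seen in 8.94% and 7.53%. No loop of Henle cell held all 3 (0 of 276 and 0 of 331; a count of 0, taken to allow 3 cells, allows up to 1.09% and 0.906%, and the exact intervals end at 1.33% and 1.11%), nor did any endothelial cell (0 of 690 and 0 of 600, up to 0.435% and 0.5% by the same limit), a class taken as background. Median depths before thinning were 16905 and 24841 UMIs in the connecting tubule, 21697 and 29048 in principal cells, and 10684.5 and 13108 in endothelium. Intervals cover counting error only. Unthinned, the mean shares were 63.3% and 82.6% in connecting tubule and principal cells, an order opposite to that of all 3 subunit levels, and no order is read from them. Scnn1a alone was seen in 19.9% and 23.9% of thinned loop of Henle cells against 0.435% and 0.5% of endothelial cells.

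**Figure D4:**
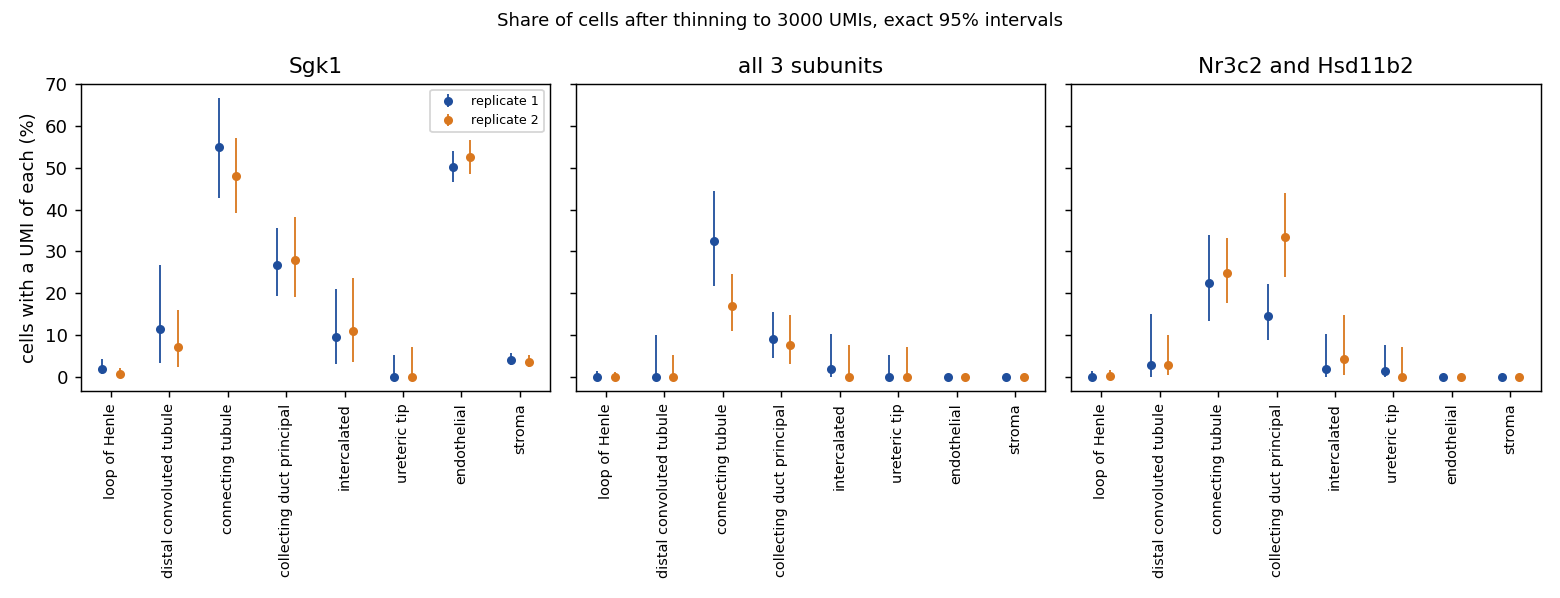
Share of cells holding a UMI of Sgk1, of all 3 subunits, or of both Nr3c2 and Hsd11b2 after thinning to 3000 UMIs, by class and library, with exact 95% intervals. Sgk1 is present in about the same share of endothelial (50.3% and 52.7%) and connecting tubule cells (54.9% and 48.1%), whereas all 3 subunits occur together in no endothelial cell.

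The mineralocorticoid receptor was present further up the nephron than the enzyme that protects it. Nr3c2 was at 479 and 430 CPM in the connecting tubule (455 ± 34.5), 460 and 318 in intercalated cells, 376 and 299 in the distal convoluted tubule, 272 and 293 in principal cells and 97.1 and 111 in the loop of Henle, against 11.3 and 10.6 in other kidney cells. The connecting tubule, intercalated cells and distal convoluted tubule overlapped in this order. The loop of Henle stood below these classes and above the tip (40.7 and 30.4 CPM) and endothelium (33.0 and 23.9 CPM). Against other kidney cells its log2 fold change was 5.51 in the connecting tubule (SE 0.17, edgeR adjusted p = 7.48e-12), 5.09 in the distal convoluted tubule (SE 0.17, edgeR adjusted p = 1.27e-11) and 3.39 in the loop of Henle (SE 0.15, edgeR adjusted p = 2.14e-10).

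Hsd11b2 was at 239 and 343 CPM in the connecting tubule (291 ± 73.7), 196 and 310 in principal cells (253 ± 80.3), 95.6 and 104 in intercalated cells, 25.9 and 23.7 in the distal convoluted tubule and 3.58 and 5.06 in the loop of Henle. The first 2 classes overlapped and stood above all others. Its log2 fold change against other kidney cells was 4.85 in the connecting tubule (SE 0.18, edgeR adjusted p = 3.06e-11) and -1.23 in the loop of Henle (SE 0.21, edgeR adjusted p = 0.000164), where Nr3c2 was higher. Nephron progenitors gave 662 of the 926 and 404 of the 714 Hsd11b2 counts of that pool, and the loop of Henle was not below the proximal tubule (0.912 and 1.21 CPM), podocytes (1.35 and 1.48 CPM) or endothelium (1.36 and 2.74 CPM). The distal convoluted tubule value of 1.26 (SE 0.24, edgeR adjusted p = 0.000449) turned to -0.43 (edgeR adjusted p = 0.363) when the gate required a lead of 0.2. After thinning, Nr3c2 and Hsd11b2 were seen together in 22.5% and 24.8% of connecting tubule cells, 14.6% and 33.3% of principal cells and 2.86% and 2.86% of distal convoluted tubule cells, and in 0 of 690 and 0 of 600 endothelial cells.

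Outside the tubule, Hsd11b2 had a further level in nephron progenitors, at 36.1 and 27.9 CPM. Both libraries stood above the distal convoluted tubule, early nephron (9.73 and 12.7 CPM) and stroma (8.96 and 12.6 CPM). In a second fit with 15 classes kept apart, each against the mean of the others, it was higher in progenitors by 1.53 on the log2 scale (SE 0.16, edgeR adjusted p = 2.14e-08). Of thinned progenitors 9.29% and 10.8% held an Hsd11b2 UMI, against 0.680% and 0.678% of proximal tubule cells. In this fit 47.3% of all genes were called in progenitors, 43.4% in endothelium, 31.7% in the connecting tubule and 37.6% in the tip.

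The glucocorticoid receptor was spread over the kidney. Nr3c1 was at 141 and 136 CPM in immune cells, 145 and 119 in endothelium, 146 and 113 in the loop of Henle, 125 and 103 in principal cells and 93.0 and 57.3 in the connecting tubule, and every class from immune cells to stroma (113 and 102 CPM) overlapped with the next. It was lowest in nephron progenitors (30.01 and 28.9 CPM) and the ureteric tip (35.8 and 23.2 CPM), apart from erythroid cells, where no UMI was counted. Since that empty class distorts a mean of classes, the fit was repeated without it: Nr3c1 was then lower in progenitors by -1.53 (SE 0.12, edgeR adjusted p = 5.07e-10) and in the tip by -1.69 (SE 0.13, edgeR adjusted p = 8.65e-10) on the log2 scale. Against other kidney cells it was not called in the connecting tubule (-0.03, SE 0.13, edgeR adjusted p = 0.875). The ratio of Nr3c2 to Nr3c1 counts was 5.15 and 7.51 in the connecting tubule, 4.14 and 4.92 in intercalated cells and 3.51 and 4.75 in the distal convoluted tubule. It was 2.17 and 2.85 in principal cells, 1.14 and 1.31 in the tip and 0.665 and 0.983 in the loop of Henle.

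Sgk1 was shared by the connecting tubule and the endothelium. It was at 343 and 375 CPM in endothelium (359 ± 23.2), 298 and 292 in the connecting tubule (295 ± 4.53), 102 and 155 in principal cells and 99.02 and 63.2 in intercalated cells. The distal convoluted tubule held 20.7 and 21.5 CPM, the loop of Henle 2.71 and 2.97 and the tip 1.08 and 1.48 (5 and 6 counts). Endothelium stood above the connecting tubule and the latter above principal cells without overlap. With classes kept apart Sgk1 was higher in endothelium by 4.67 (SE 0.15, edgeR adjusted p = 3.12e-18) and in the connecting tubule by 4.40 (SE 0.16, edgeR adjusted p = 1.77e-16), and lower in the tip by -4.22 (SE 0.51, edgeR adjusted p = 4.87e-07). The pool of other kidney cells contains the endothelium; against it Sgk1 was at 2.35 in the connecting tubule (SE 0.17, edgeR adjusted p = 2.42e-08) and -1.45 in the distal convoluted tubule (SE 0.23, edgeR adjusted p = 0.000101).

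Sgk1 is also known as an early response gene of stressed cells, and a list of 10 dissociation stress genes is given beside it. Their summed level was 415 and 360 CPM in endothelium, 245 and 151 in the connecting tubule and 177 and 137 in principal cells. In podocytes it was 248 and 244 CPM, with Sgk1 at 1.94 and 1.97. Immune cells held 264 and 503 CPM, with Sgk1 at 8.49 and 55.0. Over all classes fitted the summed level ranged from 29.2 to 503 CPM. The part of stress in the Sgk1 levels was not tested. Barcodes with 10 to 100 UMIs, which hold mostly free RNA, contained Sgk1 at 153 and 103 CPM, Nedd4l at 174 and 146 and Scnn1b at 9.92 and 37.9. In replicate 1 podocytes the estimated free RNA share of 7.27%, taken of 153 CPM, exceeds the 1.94 CPM of Sgk1 counted. The same held in the loop of Henle (4.11%, 2.71 CPM) and the tip (3.08%, 1.08 CPM), but not in replicate 2 podocytes (0.385%, 1.97 CPM). Subtraction may therefore remove too much in replicate 1. With free RNA subtracted, Sgk1 kept its calls against other kidney cells in the connecting tubule, principal cells, distal convoluted tubule, loop of Henle and tip, and lost it in intercalated cells (0.50, edgeR adjusted p = 0.305).

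Nedd4l, the ligase that removes the channel, was highest where intercalated (1011 and 803 CPM) and principal cells (960 and 765 CPM) overlapped. Proximal tubule (460 and 347 CPM) overlapped with the connecting tubule (489 and 293 CPM), and the loop of Henle, distal convoluted tubule and tip lay between 164 and 302 CPM. It was higher in principal cells than in other kidney cells by 2.61 on the log2 scale (SE 0.12, edgeR adjusted p = 3.11e-10) and in the connecting tubule by 1.52 (SE 0.12, edgeR adjusted p = 7.36e-08). Replicate 1 stood above replicate 2 in each of the 6 distal and duct classes.

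Tsc22d3 did not follow the channel. It was highest in immune cells (39.8 and 65.2 CPM), endothelium (43.2 and 37.5 CPM) and principal cells (46.6 and 29.8 CPM), which overlapped, and low in the connecting tubule (18.1 and 8.16 CPM). Against other kidney cells it was higher in principal cells (0.57, SE 0.17, edgeR adjusted p = 0.0114) and lower in the connecting tubule (-0.96, SE 0.21, edgeR adjusted p = 0.00122) and the loop of Henle (-1.32, SE 0.18, edgeR adjusted p = 1.7e-05). Principal cells against connecting tubule differed by 1.53 (SE 0.22, edgeR adjusted p = 8e-05), the opposite direction to Sgk1.

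In the ureteric tip, the embryonic source of the collecting duct, 47.5% of all genes were called against other kidney cells and 8 of 9 members, 5 of them higher (22.9% of all genes). Scnn1b (4.58, SE 0.30, edgeR adjusted p = 1.74e-08), Scnn1g (4.56, SE 0.22, edgeR adjusted p = 7.01e-10) and Nr3c2 (1.72, SE 0.16, edgeR adjusted p = 7.37e-07) were higher, Sgk1 was lower by -5.61, and Scnn1a was not called (-0.03, SE 0.39, edgeR adjusted p = 0.964). The Sgk1 value rests on 5 and 6 counts in the tip, and most Sgk1 counts of the pool came from endothelium. In that pool podocytes were at 1.94 and 1.97 CPM and nephron progenitors at 2.72 and 2.49, against 1.08 and 1.48 in the tip. Proximal tubule (11.6 and 13.6 CPM) and stroma (12.4 and 12.6 CPM) stood higher. Scnn1a was higher when cells were clustered by the Leiden method instead of gated (1.30, edgeR adjusted p = 0.0125). The Hsd11b2 call (0.54, edgeR adjusted p = 0.0464) was lost under 7 alternatives, with an adjusted p of 0.0608 to 0.226. Principal cells against the tip showed the mature duct higher in all 9 members, where 44.7% of all genes were called and 21.1% higher: Sgk1 by 6.67 (SE 0.31), Scnn1a by 5.88 (SE 0.27), Hsd11b2 by 4.01 (SE 0.20), Scnn1g by 3.39 (SE 0.18), Scnn1b by 3.27 (SE 0.26) and Nr3c2 by 3.03 (SE 0.16).

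Intercalated cells, which secrete acid or base, were called for 8 of 9 members against other kidney cells (51.8% of all genes) and for 6 of 9 against principal cells (29.0% of all genes). Scnn1b, Scnn1g, Hsd11b2, Tsc22d3 and Sgk1 were higher in principal cells (14.8% of all genes), by 1.19, 1.25, 1.22, 1.80 and 0.55, and Nr3c2 was lower (-0.55). The Sgk1 call (edgeR adjusted p = 0.0494) was lost under 7 alternatives. Of the 98 intercalated cells, 28 held an Aqp2 UMI, and the members split with it, a division chosen after the values were seen. In the 16 and 12 cells with Aqp2, Hsd11b2 was at 202 and 285 CPM, Scnn1b at 338 and 270 and Scnn1g at 190 and 187, all in or near the range of principal cells. In the 36 and 34 cells without it they were at 12.3 and 12.5, 39.9 and 66.8, and 16.9 and 36.6 CPM. Sgk1 was at 171 and 139 against 43.0 and 25.1 CPM.

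Nr3c2 and Nedd4l did not split in this way. Nr3c2 was at 528 and 361 CPM with Aqp2 and 406 and 297 without, and Nedd4l at 950 and 785 with and 1058 and 813 without, the bins overlapping for both. Foxi1, which defines intercalated cells, was at 371 and 295 CPM with Aqp2 and 402 and 245 without. Other intercalated markers differed between the bins: Slc26a4, of base-secreting cells, was at 514 and 750 CPM with Aqp2 and 236 and 251 without, and Slc4a1, of acid-secreting cells, at 163 and 143 with and 184 and 294 without. S100g, a marker of the connecting tubule, was at 4867 and 5644 CPM with Aqp2 and 957 and 710 without. The part of Aqp2 and S100g transcripts from other cells in this split was not tested. Cells were not thinned for it, so asking for an Aqp2 UMI also favours deeper cells. Median depth was 17973 and 28202 UMIs in intercalated cells without Aqp2, against 19764 and 30004.5 over all intercalated cells, which include them. The 36 and 34 cells without Aqp2 held 651915 and 957399 of the 1161427 and 1438819 UMIs of the class. The 16 and 12 cells with Aqp2 held the rest. Mean depth thus differed more between the bins than these medians do. The part of depth was not tested either. Over intercalated cells without Aqp2, the Hsd11b2 value against other kidney cells moved from 3.33 (edgeR adjusted p = 5e-09) to 0.32 (edgeR adjusted p = 0.538) and that of Sgk1 from 0.50 (edgeR adjusted p = 0.0443) to -0.79 (edgeR adjusted p = 0.0127).

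**Figure D5:**
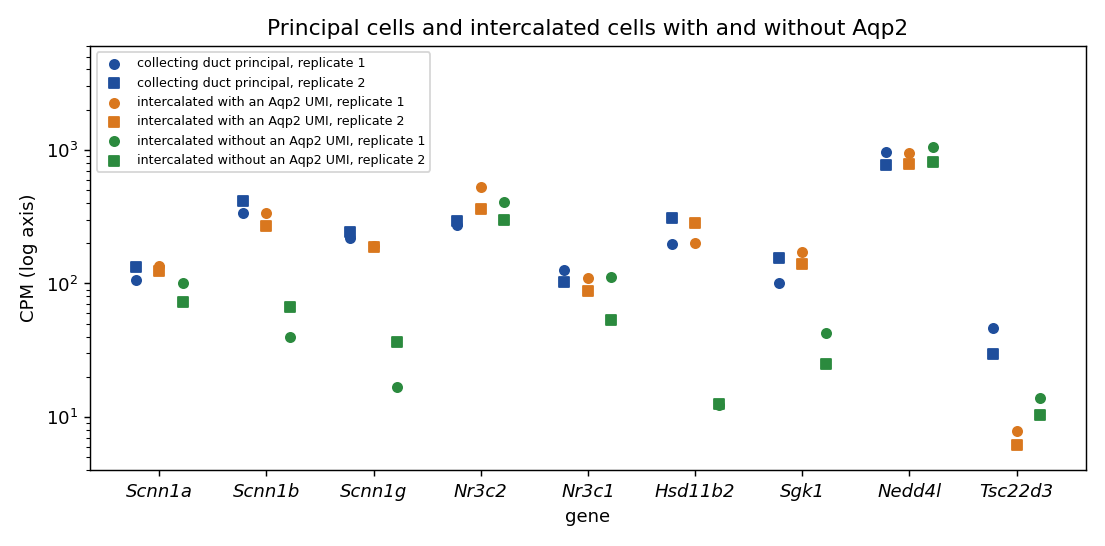
Levels of the 9 genes in principal cells and in intercalated cells with and without an Aqp2 UMI, in CPM on a log axis; each point is 1 library, and points that coincide hide each other. Hsd11b2, Scnn1b, Scnn1g and Sgk1 are lower in both libraries without Aqp2, whereas Nr3c2 and Nedd4l overlap.

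The connecting tubule gate could be divided likewise, by UMIs of Slc12a3 (the distal convoluted tubule transporter) and Aqp2, after the values were seen and with no test. Hsd11b2 was at 172 and 130 CPM in the 11 and 38 cells with Slc12a3 alone, 218 and 353 in the 29 and 47 cells with both and 395 and 516 in the 21 and 26 cells with Aqp2 alone, with no overlap between these bins. Sgk1 had the same order, at 159 and 198, 269 and 296, and 496 and 356 CPM. Scnn1b was at 338 and 462, 532 and 594, and 654 and 593 CPM, the last 2 bins overlapping only narrowly. Scnn1a overlapped across the bins (259 and 148, 162 and 167, 138 and 192 CPM). The 10 and 18 cells with neither gene gave 2 to 39 UMIs per member and library and are not compared. Cells were not thinned for this division, so bins that ask for a UMI also favour deeper cells. The part of depth and of remaining doublets in the order of the bins was not tested.

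Other genes of the pathway were taken as lists, whose counts are read against the 53.3% of all genes called in principal cells and the 57.2% called in the connecting tubule, each against other kidney cells. Of 8 genes of channel processing and turnover, 6 were higher and 2 lower in principal cells than in other kidney cells, with a median log2 fold change of 1.34 against -0.04 over all genes. Against the same pool the list median was higher still in the connecting tubule (1.53), loop of Henle (2.05) and distal convoluted tubule (2.19). Those named had the largest called changes in principal cells. They were the membrane protease St14 (4.46, SE 0.12, at 79.1 and 81.1 CPM against 3.999 and 3.62) and the protease inhibitors Spint1 (3.21, SE 0.14) and Spint2 (2.49, SE 0.12). St14 was as high in the connecting tubule (84.7 and 68.5 CPM). Of 6 receptor partners, 2 were higher and 1 lower (median 0.15), a share near that of all genes: the coactivator Ncoa1 (0.49, SE 0.13), the chaperone Fkbp4 (0.30, SE 0.11) and Hsd11b1, which regenerates glucocorticoid (-1.88, SE 0.59; 0.518 and 0.642 CPM against 2.28 and 2.10). The Hsd11b1 levels in principal cells are those of only 3 counts in each library.

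Of 10 genes of the kinase network, 4 were higher and 3 lower in principal cells than in other kidney cells (median -0.11). In the connecting tubule 7 were higher and 0 lower (median 0.87), and the same counts held in the loop of Henle and in intercalated cells. The distal convoluted tubule had 6 and 0 (median 1.43). Of all genes 58.6%, 51.8% and 56.0% were called in the loop of Henle, intercalated cells and distal convoluted tubule. Between the connecting tubule and principal cells, 6 of 10 were lower in principal cells and 0 higher (median -0.99 against 0.03 over all genes). Wnk4, a regulator of distal salt transport, was at 41.3 and 51.2 CPM in principal cells and 227 and 216 in the connecting tubule. Sgk2, the relative of Sgk1, was at 1.38 and 2.14 against 19.7 and 30.1, and Stk39 at 163 and 169 against 137 and 129. Of 11 corticosteroid-induced genes, 3 were higher and 3 lower in principal cells (median -0.11), a share near that of all genes, and 8 higher and 0 lower in the connecting tubule (median 1.17). Intercalated cells had 7 higher and 0 lower (median 0.92), the distal convoluted tubule 5 and 1 (0.56) and the loop of Henle 5 and 2 (0.15). Between principal cells and connecting tubule, where 31.2% of all genes were called, 1 was higher and 7 lower in principal cells (median -1.15 against 0.03 over all genes). Fxyd4, a sodium pump modulator of the duct, was at 1387 and 1792 CPM in principal cells, 64.2 and 69.3 in the connecting tubule and 2.91 and 4.67 in other kidney cells. Klf15 was at 1.04 and 2.35 CPM in principal cells against 9.45 and 15.7 in the connecting tubule. Zbtb16 was called higher in principal cells (1.32, SE 0.41, edgeR adjusted p = 0.0143), although its 12.3 and 2.14 CPM overlapped the 3.63 and 2.12 of other kidney cells.

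Of 7 pump and potassium channel genes, 4 were higher and 2 lower in principal cells (median 1.68) and 6 higher and 1 lower in the connecting tubule (median 3.75). The loop of Henle and distal convoluted tubule had the same counts as the connecting tubule, with medians of 3.88 and 4.49. Kcnj10, a basolateral potassium channel, was at 32.3 and 47.3 CPM in principal cells and 169 and 175 in the connecting tubule, against 0.568 and 1.02. Fxyd2, the gamma subunit of the pump, was at 68.4 and 59.7, 1648 and 3150, and 928 and 656 CPM in the same classes. The potassium channel Kcnma1 was lower in both, at 6.90 and 1.498 and 11.03 and 3.01 CPM against 42.8 and 31.6. Of the 9 stress genes tested, 3 were higher and 5 lower in principal cells (median -1.04), with Hspa1b (4.18, SE 0.18) and Hspa1a (3.50, SE 0.28) higher and Dusp1 (-3.56, SE 0.28) lower.

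Likeness between genes was measured as Pearson's r of log2(CPM + 1) over 30 sums of 15 classes and 2 libraries, which share libraries and depth, and is a description. Among members the closest pair was Scnn1b and Scnn1g (r = 0.989), then Scnn1a and Nr3c2 (0.898), while Scnn1a and Scnn1b reached 0.775 and Sgk1 and Hsd11b2 0.434. The gene most like Scnn1b outside the members was Cldn8, a tight junction claudin of the distal nephron (0.953), and that most like Scnn1g was Hkdc1 (0.938), which was also the second for Scnn1b (0.952). Scnn1a was most like Tmem213 (0.970) and Ckmt1 (0.965), Nr3c2 most like Tmie (0.943), Mal (0.940) and Tspan1 (0.939), and Hsd11b2 most like Rab15 (0.901). For Sgk1 the nearest were Cav2 (0.822), Ednrb (0.818) and the Notch ligand gene Dll4 (0.799). Nr3c1 was nearest to 4932438A13Rik (0.960), Nedd4l to Ubxn2a (0.929) and Tsc22d3 to Herc6 (0.842).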

How the data were processed

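Single-cell 3' cDNA of 2 newborn kidney libraries was counted by the authors as raw UMI counts per gene and barcode; the deposited matrices hold all barcodes. The submitters' processing notes name Cell Ranger 6.0.1 and the build mm10, whereas the file headers name Cell Ranger 4. The deposited counts were used unscaled. Doublets were the highest Scrublet scores (scanpy 1.11.5), 0.8% per 1000 cells. Cells were gated by the mean of log-scaled marker levels, each capped at the 99th percentile, with at least 2 markers detected and a lead of 0.1; 79.0% and 79.9% of cells were gated. The 2 libraries are numbered in order of deposit. Counts were summed per library and class (at least 20 cells in both) and tested with edgeR 4.0.16 (TMM, filterByExpr, quasi-likelihood, library as block), scripts having been tested on simulated data; gate markers were left out of the adjustment. The first fit had 14 sums, the second 30. Shares were taken after thinning to 3000 UMIs, with exact binomial intervals at 95%. Genes named are all 9 members, the 3 genes most like each member (for some members fewer are given, and 1 gene is not reported here) and, per pathway list, the 3 largest called changes in principal cells against other kidney cells. Members, lists and markers were chosen with earlier results of these data known. Alternatives were a minimum of 10000 UMIs, no doublet removal, a lead of 0.2 or 0.05, Leiden clusters (resolution 2), free RNA subtraction, DESeq2 1.42.0 and its size factors, no low count filter, no block, other thinning and each library alone; intercalated cells without Aqp2 and a fit without erythroid cells were added after the data were seen. Sums of the 6 distal and duct classes held 1157407 to 12459948 UMIs, which limits the small classes.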

Additional observations from a re-analysis of the deposited data

How the results depend on the processing

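Of 1058 tested alternative values for 106 fold changes of members, 1001 kept their direction and side of the threshold, 40 kept the direction but lost the call, 2 gained it and 15 turned. Without the library block, 69 of 83 calls of the first fit were kept; members called fell from 8 to 5 in the ureteric tip against other kidney cells and from 8 to 5 in principal cells against connecting tubule. The share of cells with all 3 subunits followed depth: in the connecting tubule it was 24.7% on average (17.1% to 32.4% with either library alone), 63.3% without thinning and 2.18% at 1000 UMIs; in principal cells it was 8.23% (7.53% to 8.94%), 82.6% and 0.407%, and 9.27% without doublet removal. Directions that turned were mostly near 0: Nr3c1 in the connecting tubule against other kidney cells (main -0.03; 0.071 at 10000 UMIs, 0.12 without doublet removal, 0.0692 with the looser gate, 0.0674 with Leiden clusters), Scnn1a in the tip (main -0.03; 0.0132 at 10000 UMIs, 0.0396 with the looser gate, 1.30 with Leiden clusters, 0.0322 with free RNA subtracted), Nedd4l in distal convoluted tubule against loop of Henle (0.0065 with the stricter gate), Tsc22d3 in connecting against distal convoluted tubule (0.0014 without doublet removal) and Scnn1a in principal against intercalated cells (-0.10 with the looser gate). Hsd11b2 in the distal convoluted tubule turned to -0.43 with the stricter gate, and Sgk1 in intercalated cells turned from 0.50 to -1.11 (stricter gate), -0.75 (Leiden clusters) and -0.79 (cells without Aqp2). The cause was not tested. Leiden clusters held no distal convoluted tubule class, so its 3 comparisons could not be made there. With either library alone fold changes have no test. Of 212 such values, 182 kept their sign and moved by no more than the spread between libraries. That spread is the SD of the same 2 single-library values. A joint value near their midpoint passes almost by construction, so the 182 are no measure of stability. The other 30 moved by more or changed sign, and among these 30 the largest move was 0.41 on the log2 scale. The largest move over all 212 is not given. Of the 212, 8 changed sign, each for a value not called with both libraries (Nr3c1 in connecting tubule, distal convoluted tubule and intercalated cells, Scnn1g in the loop of Henle and Scnn1a in the tip, all against other kidney cells; Nedd4l in distal convoluted tubule against loop of Henle; Tsc22d3 in connecting against distal convoluted tubule; Scnn1a in principal against intercalated cells). Classes of 35 to 129 cells per library limit the precision.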

Other observations

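The urothelium, the lining of the urinary tract, gave 13 and 9 cells and was too small to be fitted. Its sums of 298659 and 235414 UMIs held 11 and 11 counts of Scnn1b (36.8 and 46.7 CPM) and 21 and 11 of Scnn1g (70.3 and 46.7 CPM), beside 1 and 0 of Scnn1a and 0 and 0 of Hsd11b2. As in the ureteric tip, beta and gamma transcripts were counted with few or none of alpha. With so few counts no fold change is given. Nedd4l was at 177 and 178 CPM there.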
